A study of Mus musculus with 36 samples.

Results

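The proteins of the cytoplasmic ribosome are encoded by a set of genes named Rpl for the large subunit and Rps for the small one. In lung RNA of 36 mice, 85 rows carried such a name in both the table of the female mice and that of the male mice, out of 17716 names that both tables share. Of these 85 genes, 49 belong to the large subunit and 36 to the small one. A row was counted by its symbol alone, as Rpl or Rps with a number and at most a short suffix, or as Rplp0, Rplp1, Rplp2 or Rpsa, and no measured value entered the choice. One further row, Rpl39l, was in the table of the male mice only and was not used. By annotation 4 of the 85 are pseudogenes, namely Rps12l1, Rps3a2, Rps3a3 and Rps4l, so the set is one of names and not only of coding genes. A minimum on low counts left 82 of the 85 for the tests in female mice, without Rpl3l, Rps3a2 and Rps3a3, and 83 in male mice, without Rps3a2 and Rps3a3.

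The study asked what the crude oil of the Deepwater Horizon spill and the dispersants Corexit 9500 and Corexit 9527 do to the lung. Wild-type C57BL/6 mice, bought at 7 weeks of age and kept for 1 week, received saline, the oil, one dispersant, or oil with one dispersant into the airways on days 0, 7 and 13, and the left lung was taken on day 14. Each of the 6 groups, named here saline, oil, 9500, 9527, 9500+oil and 9527+oil, held 3 female and 3 male mice. All dosed preparations were given at a dilution of 0.1. The labels call the route intratracheal instillation, while the study's methods describe aspiration from the throat. Each sex has a table of its own. No group carried a transgene or deletion, and the 3 mice of a group are separate animals, so that a p-value measures the spread between these mice. In RNA of a whole lung lobe, fewer cells of a type and less RNA per cell cannot be told apart.

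A ribosome holds one copy of most of its proteins, and cells make them together: their genes are strongly transcribed, and their mRNAs start with a run of pyrimidines through which the growth pathway of mTOR and Larp1 adjusts translation. The stalk of the large subunit, built of Rplp0 with pairs of Rplp1 and Rplp2, draws the elongation factors to the ribosome. Through reverse transcription of their abundant mRNAs these genes have also left many processed copies across the mouse genome, as many other strongly transcribed genes have.

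Total counts per library ran from 17501180 to 30011557 in female and from 17703655 to 29685060 in male mice. Counts on genes of the mitochondrial genome, the mt- rows, took 5.27% to 7.68% of the counts of a male library. Among female mice 14 libraries held 6.16% to 11.3%, and 4 held over 20%: saline mouse 3 with 45.1%, 9527 mouse 11 with 38.4%, oil mouse 6 with 22.6% and 9500+oil mouse 14 with 20.7%. The tests of the female groups and of the sexes are therefore given with and without these 4. Another female library, 9500 mouse 7, stood apart on the ribosomal protein genes themselves, as described below. Lung markers were high in both sexes, with Sftpc, the surfactant protein of alveolar type 2 cells, at 3588 to 16390 CPM, the counts of a row scaled to the size of its library, in female and 9027 to 15390 in male mice. Heart genes were present too, with Myh6 at 0 to 240 CPM in female and 30.1 to 233 in male mice, while the skeletal muscle genes Acta1 and Ckm did not pass 4.81 CPM in any mouse.

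Several of the sequences matter for reading the counts, because a read from a gene and a read from a near-identical copy can look the same. Shown are 30 bases of coding sequence (GRCm38) from 2 genes whose most counted copy is identical to them over the whole coding sequence, and from 2 whose copy differs. The stretch of Rps12 is in exon 3 (chr10:23786851-23786880, minus strand) and that of the row Rps12-ps3 at chr19:59322385-59322414, plus strand. For Rpl5 it is in exon 2 (chr5:107901870-107901899, plus strand), and for its copy Gm15500 at chr7:114706131-114706160, minus strand. Rplp0 is shown in exon 3 (chr5:115560741-115560770, plus strand) beside Gm9625 (chr13:67810300-67810329, plus strand), and Rpsa in exon 2 (chr9:120128530-120128559, plus strand) beside Rpsa-ps9 (chr2:28477206-28477235, plus strand). Capitals mark the base at which a gene and its copy differ, and the first pairs have none.
Rps12 and Rps12-ps3: catagctgctggaggtgtaatggacgtcaa
Rpl5 and Gm15500: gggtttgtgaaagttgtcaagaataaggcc
Rplp0: caacttttggatgattaTccaaaatgcttc
Gm9625: caacttttggatgattaCccaaaatgcttc
Rpsa: atgtcctcaaattccttgctgCgggaaccc
Rpsa-ps9: atgtcctcaaattccttgctgTgggaaccc

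Over the whole coding sequence Rps12 and Rpl5 differed from these copies in 0 bases, whereas Rplp0 differed from Gm9625 in 25 of 952 aligned bases and Rpsa from Rpsa-ps9 in 16 of 885. Near-identical copies, defined as rows with at least 95% identity over at least 80% of the coding length, were found for 63 of the 85 genes and made up 206 rows. A further 19 genes had none, and 3 of the pseudogenes named above are themselves copies of a coding member. Where the most counted copy was identical to the gene, which held for 16 genes, the copies took a median of 34.3% of the counts of gene and copies together in female and 38.3% in male mice. Where it differed in at least 1 base, as for 46 genes, the medians were 0.209% and 0.263%. For Rps23 no such comparison was made, and its copies took 5.03% and 6.06%.

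**Figure D1:**
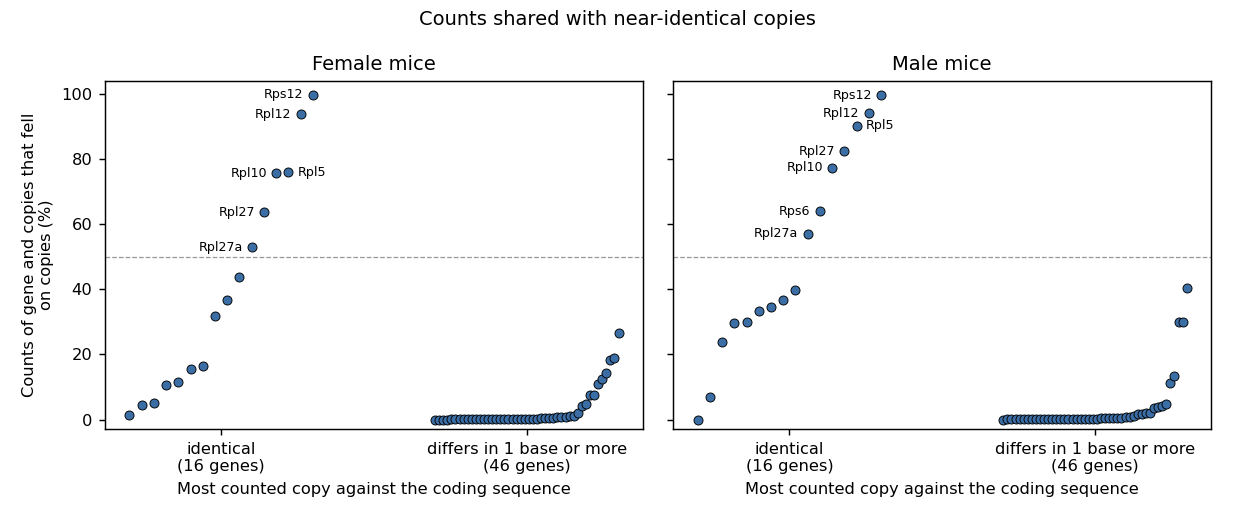
Share of the counts of a gene and its near-identical copies that fell on the copies (vertical axis, %), for female (left) and male mice (right); each point is a gene, placed by whether its most counted copy is identical to it over the coding sequence, and the dashed line is at 50%. Genes past 50%, which are named, were all among the 16 with an identical copy.

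More than 50% of the counts lay on copies for 6 genes in both tables, Rpl10, Rpl12, Rpl27, Rpl27a, Rpl5 and Rps12, and for Rps6 in male mice only (64.0%, against 43.8% in female mice). Rps12 was the extreme case, with 99.8% of the counts of its family on copies in female and 99.6% in male mice. Its own row did not pass 2.09 CPM in any mouse, while the row Rps12-ps3, whose sequence is printed above beside that of Rps12, reached 11.5 to 254 CPM in female and 98.7 to 261 CPM in male mice. By its coding sequence Rps12 cannot be told apart from that row. None of the 46 genes whose copy differed passed 50%, the highest being Rpl14 in female mice with 26.6% and Rpl29 in male mice with 40.5%. Of the stalk, Rplp0 and Rplp1 had 0.371% and 0.0156% of their family's counts on copies in male mice, and Rplp2 has no near-identical row, so the values of the stalk below are little exposed to copies.

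The share that went to copies also differed between mice. Rpl27 stood at 338 CPM in female 9500 mouse 7, in which its copy Rpl27-ps3 was at 0 CPM, whereas in the other female libraries with at most 20% of counts on mt- rows Rpl27 was at 8.82 to 54.5 CPM and the copy at 54.3 to 131 CPM. In the same mouse Rps6-ps4 was at 4.07 CPM and Rps6 at 843 CPM, against 20.5 to 371 CPM and 183 to 371 CPM in the other 13. For these genes a change of the row and a change of how reads were divided between identical rows cannot be told apart.

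Of the 61 members with a start site in the RefSeq table (GRCm38.p6), 25 shared a short word near it. The window ran from 250 bases before to 50 after the start, 300 bases in all, and both strands were searched for 4 words, none of which contains another. CCGGAAG or its reverse complement CTTCCGG, the core that ETS factors such as Gabpa bind, was in 41.0% of the 61 members and in 9.93% of 27025 genes. AAGATGGC, a core of the factor Yy1, was in 9.84% and 3.19%. The pyrimidine run CTCTTTCC was in 16.4% and 3.57%, and TATAAA, the TATA box, in 11.5% and 15.7%. A match is a description of letters and not a binding site, and 24 members without a window were not searched. The 27025 genes are all those with a window and were not matched to the members for coding status or level. The stretches of 3 members that the results below turn on are shown with the word in capitals: Rplp2 (chr7:141447532-141447561, plus strand), Rpsa (chr9:120127567-120127596, plus strand) and Rps26 (chr10:128626702-128626731, minus strand), the first 2 holding the reverse complement. The gene positions given below come from another annotation, by which the stretches of Rplp2 and Rps26 lie inside the gene.
Rplp2: gaaatgtcttcCTTCCGGtgcacccttttc
Rpsa: cgccccagctaCTTCCGGcctggggtctgt
Rps26: ttaatcttccgCCGGAAGgttaaatagttc

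Per kilobase of coding sequence, or of transcript for pseudogenes, Rpl41 had the highest level over the 36 mice with 1942 CPM per kb. Rpl41 encodes the shortest protein of the ribosome. The 138 coding bases used for it are the longest coding sequence among its main annotated transcripts and may not be those of that protein. They weigh on this scale. It was followed by Rplp1 of the stalk with 1549 CPM per kb and by Rps29, a small zinc-binding protein, with 1073 CPM per kb. At the other end of the 82 genes tested in both tables were Rps12 with 1.54, the pseudogene Rps4l with 17.3 and Rpl22l1 with 24.1 CPM per kb. The low end thus holds a pseudogene and, in Rps12, a row whose family was counted on an identical copy.

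Rpl22l1, Rpl3l and Rpl7l1 were below their namesakes in all 36 mice, and Rps27l was so in all mice but the 4 libraries rich in mt- counts. Rpl22l1, which can take the place of Rpl22 in the ribosome, stood at 5.25 to 11.0 CPM in male mice against 75.3 to 97.9 CPM for Rpl22. Rpl3l, the form of Rpl3 found in heart and skeletal muscle, did not pass 1.93 CPM in any mouse, and Rpl3 was at 345 to 498 CPM in male mice. Rpl7l1 was at 33.5 to 48.1 CPM and Rpl7 at 254 to 426 CPM, and Rps27l, a paralog that p53 can induce, was at 13.7 to 31.8 CPM in all male mice but 9527+oil mouse 16, where it was at 11.7 CPM, against 36.7 to 146 CPM for Rps27. In the 4 female libraries rich in mt- counts Rps27l was at 6.56 to 29.3 CPM and Rps27 at 0 to 3.88 CPM. These are levels per gene and not per length, and Rps27 shares counts with the identical row Rps27rt (33.5% of the family in male mice). Rps12l1, a pseudogene near-identical to Rps12, varied most of all, from 0 to 80.9 CPM in male mice and from 0 to 222 CPM in female mice, and its highest values were far above the row of Rps12.

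In male mice the 85 genes together took 1.45% to 1.95% of the counts outside mt- rows, and the groups overlapped. The mean was 1.58% ± 0.155 (SD, n = 3) with saline, 1.65% ± 0.114 with oil, 1.63% ± 0.136 with 9500, 1.76% ± 0.188 with 9527, 1.61% ± 0.0340 with 9500+oil and 1.55% ± 0.109 with 9527+oil. By mouse, saline gave 1.75%, 1.45% and 1.53% and 9527 gave 1.75%, 1.95% and 1.57%, so that the group with the highest mean lay partly within the range of saline. The large subunit had 1.58 to 1.66 times the counts of the small one in every male mouse. The 95% Wilson interval of such a share was narrow, as from 1.74% to 1.76% for male saline mouse 1, and covers counting error only. Gene by gene the spread was small as well: the SD of log2 CPM over the 18 male mice was under 0.3 for 66 of the 82 genes tested in both tables, with a median of 0.19, beside 0.21 for all genes tested.

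**Figure D2:**
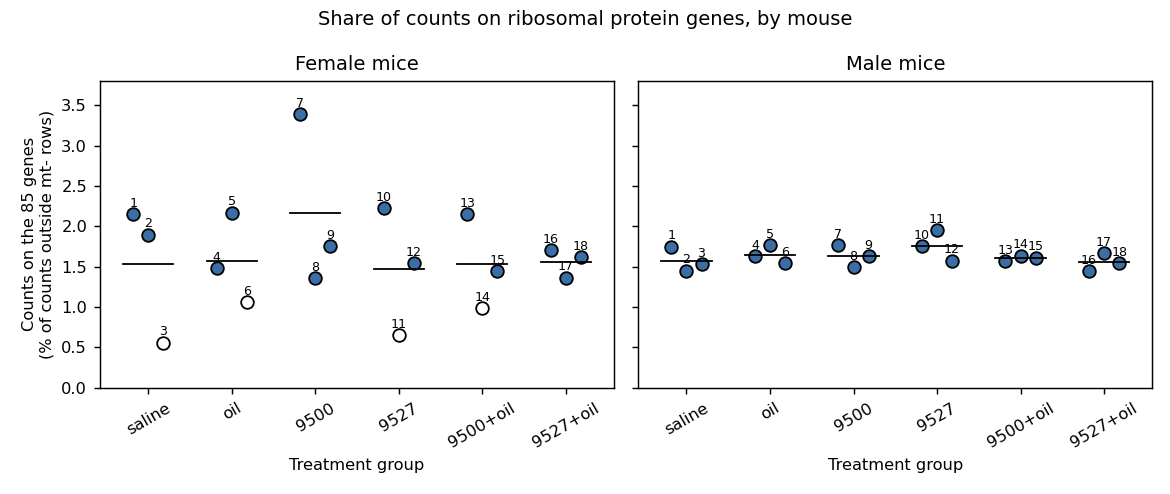
Counts on the 85 genes as a percentage of the counts outside mt- rows (vertical axis) in each female (left) and male mouse (right), by treatment group; numbers are mouse numbers, lines are group means of 3 mice, and open circles are the 4 libraries with over 20% of counts on mt- rows. Male mice lay between 1.45% and 1.95%, the open circles between 0.560% and 1.06%, and female 9500 mouse 7 at 3.39%.

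Female mice differed more from each other than the groups did. The share was 2.16%, 1.90% and 0.560% in the saline mice, 1.48%, 2.17% and 1.06% with oil, and 3.39%, 1.36% and 1.76% with 9500. It was 2.22%, 0.651% and 1.54% with 9527, 2.16%, 0.986% and 1.45% with 9500+oil, and 1.70%, 1.37% and 1.62% with 9527+oil. The 4 lowest values are those of the 4 libraries with over 20% of counts on mt- rows, although mt- counts are not in the denominator. With near-identical copies added these libraries were at 0.705% to 1.35% and the other 14 at 1.48% to 3.71%, a smaller gap. Among the 14 other female libraries the share ran from 1.36% to 3.39%, and without 9500 mouse 7 to 2.22%.

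The 4 libraries rich in mt- counts were low in most ribosomal protein genes. Relative to the median of the other 14 female libraries, the median gene of the 82 tested was at -2.39 on the log2 scale in saline mouse 3, at -1.74 in 9527 mouse 11, at -0.80 in oil mouse 6 and at -0.98 in 9500+oil mouse 14. The median of all genes was at -0.70, -0.29, -0.03 and -0.02 in the same libraries. Of the 82 genes, 61 (74.4%) were below that reference in all 4 libraries, as were 40.6% of the 15526 genes tested, and 6 were above it in all 4, as were 30.1% of all genes.

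Rpsa, a protein of the small subunit that also serves as a laminin receptor, had the lowest median deviation of the members in these 4 libraries. It was at 0 CPM in saline mouse 3 and in 9527 mouse 11, at 6.64 CPM in oil mouse 6 and at 8.33 CPM in 9500+oil mouse 14, against 163 to 1048 CPM in the other 14 female mice. A count of 0 allows up to 0.352 and 0.319 CPM in the former libraries, by 3 counts in each. Rps27 was at 0 to 3.88 CPM in the 4 libraries and at 35.1 to 165 CPM in the others, and Rps14 at 1.76 to 10.6 and 52.3 to 264 CPM. For the large subunit, Rpl18 was at 0 to 7.52 CPM against 79.5 to 314 CPM, and Rplp1 at 25.6 to 56.5 CPM against 219 to 1921 CPM. In all, 46 of the 82 rows were lower in each of the 4 libraries than in any of the 14 others, as were 23.6% of all genes. Rps14 and Rpl18 were named after their values were seen.

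With near-identical copies added, Rpsa was at 0 to 8.72 CPM against 164 to 1049 CPM, Rps27 with Rps27rt at 7.66 to 20.7 CPM against 54.4 to 424 CPM, and Rps14, Rpl18 and Rplp1 also stayed without overlap. Rpl14 was different: its own row was at 0.851 to 16.5 CPM against 117 to 237 CPM, but with its copy row it was at 120 to 154 CPM against 121 to 250 CPM. For Rpl14 a low level of the gene and another division of counts between the rows cannot be told apart, and it was named after its values were seen. These libraries were looked at with copies added for the genes of this paragraph only. Copies took up to 97.0% of the family's counts in a female library for Rps7, 77.8% for Rps27a, 74.1% for Rpl29 and 71.3% for Rpl11. The low rows counted above can thus include further cases like Rpl14.

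The 6 genes above the reference in all 4 libraries were Rpl22l1, Rpl4, Rpl23a, Rpl39, Rpl23 and Rps12l1. Rpl23, a protein of the large subunit that can bind the p53 regulator Mdm2, was at 819 CPM in saline mouse 3, 916 in 9527 mouse 11, 599 in oil mouse 6 and 526 in 9500+oil mouse 14, against a median of 291 CPM in the other 14. Rpl4 was at 1001, 1147, 871 and 808 CPM in these libraries, against 534 to 991 CPM. By base composition, in saline mouse 3 the 27 genes with at most 50% GC in their transcripts had a median of -1.12 and the 28 with at least 53.8% GC one of -2.85, and in 9527 mouse 11 the medians were -0.26 and -2.32. In oil mouse 6 they were -0.39 and -1.33 and in 9500+oil mouse 14 -0.60 and -1.56. The same split ran through all genes tested: the 6673 with at most 50% GC had medians of 0.49, 0.76, 0.65 and 0.66 in saline mouse 3, 9527 mouse 11, oil mouse 6 and 9500+oil mouse 14, and the 4940 with at least 53.8% GC had -2.36, -1.88, -1.15 and -1.13. It is thus not particular to the ribosomal protein genes. The ratio of large to small subunit counts was 2.41 in saline mouse 3 and 2.28 in 9527 mouse 11, outside the range of 1.56 to 1.72 in the 14 other female libraries, and 1.62 and 1.63 in the remaining pair.

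Markers of other cells differed in the same libraries. The summed level of the 5 red cell markers was 362 to 1033 CPM in the 4 libraries and 2969 to 9189 CPM in the other 14, and that of the 4 alveolar type 1 markers was 620 to 1124 against 1761 to 3000 CPM. Neither list overlapped. The 9 heart and muscle markers had 164 to 296 against 288 to 599 CPM and the 4 endothelial markers 1826 to 2667 against 2093 to 3304 CPM, with some overlap, and the alveolar type 2, club and ciliated, B cell, T cell, macrophage and neutrophil lists overlapped as well. Their part in the ribosomal protein values was not tested.

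**Figure D3:**
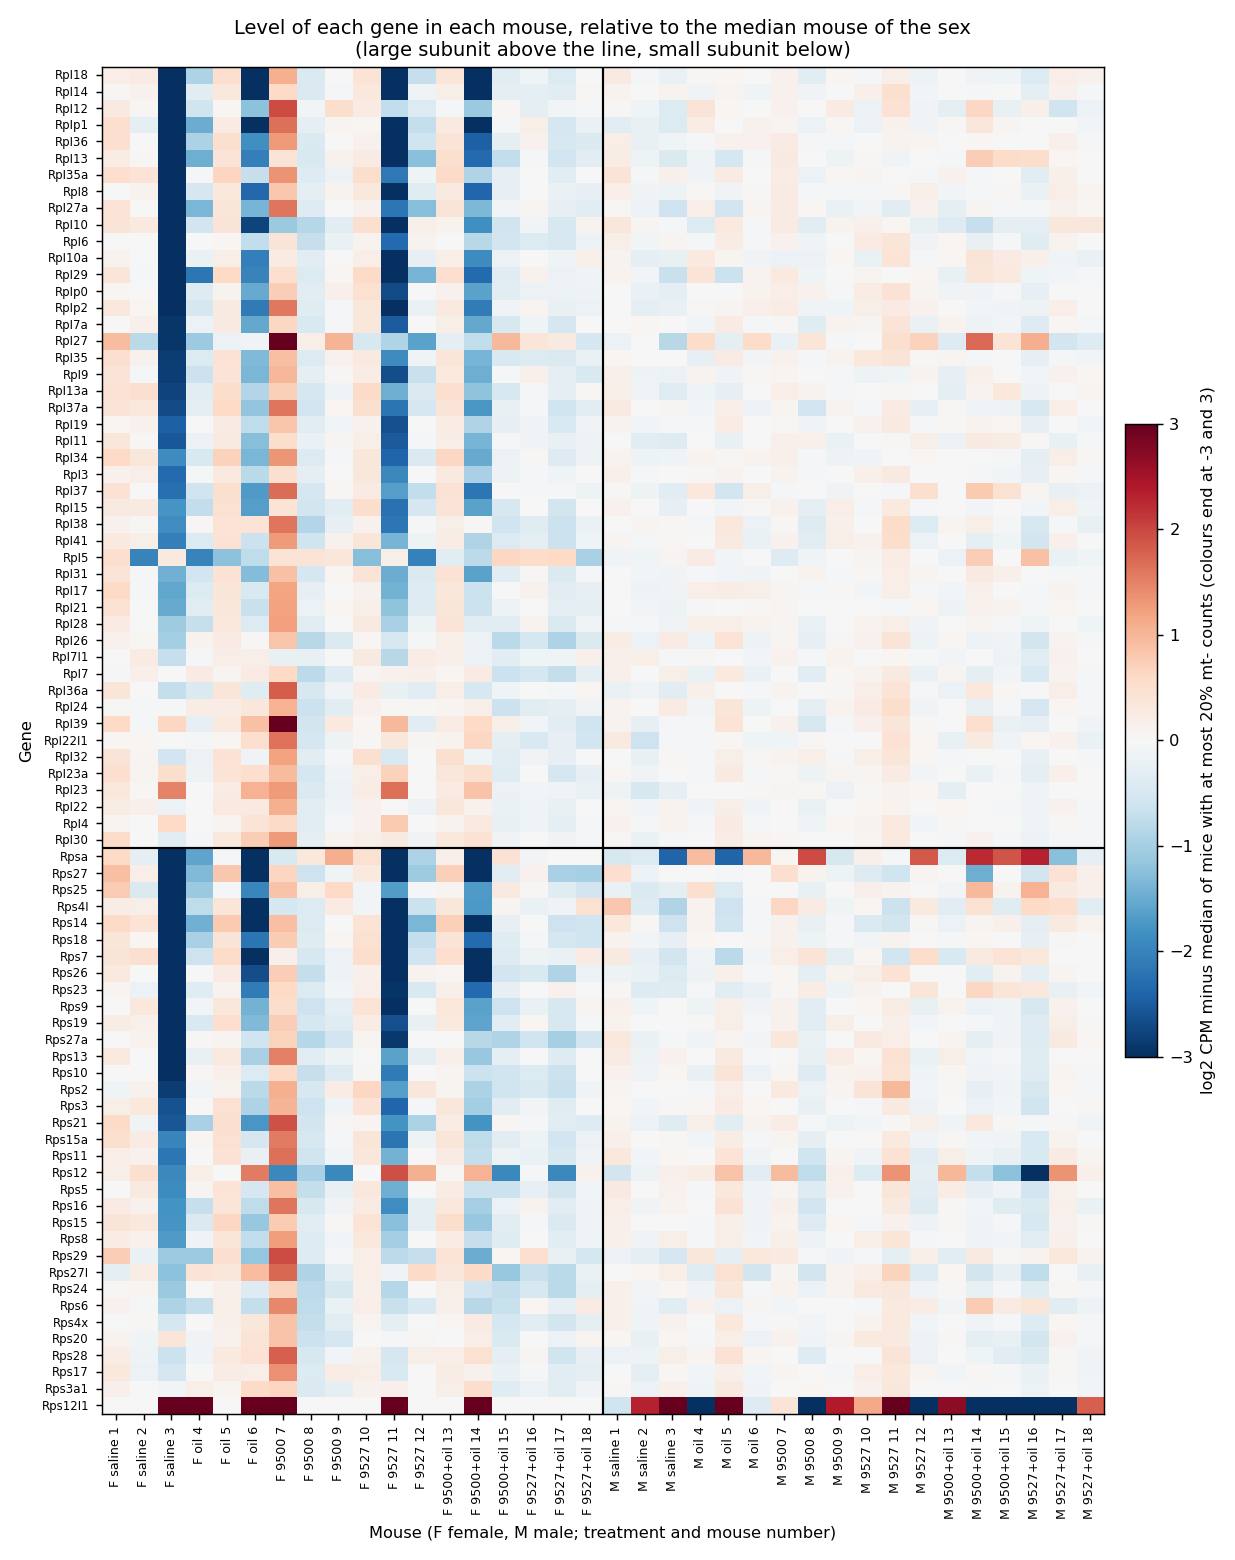
Each row is 1 of 81 genes tested in both tables and each column 1 mouse (female left, male right of the vertical line, large subunit above the horizontal line); colour is log2 CPM minus the median of the mice of that sex with at most 20% of counts on mt- rows, from -3 (blue) to 3 (red). Blue columns are female saline 3, oil 6, 9527 11 and 9500+oil 14, in which most genes are below the reference, and the red column is female 9500 7; Rps12l1 and Rpsa vary widely among male mice.

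At the other end, 9500 mouse 7 had the highest level of 70 of the 82 genes among the 14 female libraries with at most 20% of counts on mt- rows, as it had of 25.8% of all genes. Its median ribosomal protein gene was 0.91 above the reference on the log2 scale, with 6 of 82 below it, and its median over all genes was at -0.05. Rplp1 reached 1921 CPM in this mouse and 219 to 864 CPM in the other 13, Rps28 reached 342 CPM against 65.0 to 121 CPM, and Rpl39 256 CPM against 20.9 to 47.9 CPM. Its 11.3% of counts on mt- rows was the highest of the 14. Its marker lists stood apart too: club and ciliated markers were at 25628 CPM against 10206 to 18293 in the other 13, red cell markers at 9189 against 2969 to 8212, B cell markers at 385 against 88.8 to 268, T cell markers at 144 against 58.5 to 93.3 and neutrophil markers at 199 against 45.4 to 136 CPM. Its alveolar, endothelial, macrophage and heart and muscle lists lay within the range of the others. The part of these cells and of the mt- share in its ribosomal protein values was not tested.

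Within the male table, the only treatment for which edgeR's quasi-likelihood test called any gene against saline was 9527, with 284 of 15519 (1.83%) at an adjusted p under 0.05. None of the 83 ribosomal protein genes was among them. At an unadjusted p under 0.05 were 13 of the 83 (15.7%), all higher with 9527, beside 16.2% of all genes, and 11 of the 83 were higher in all 3 treated mice than in all 3 saline mice, beside 10.4% of all genes. The share of these genes at these levels was thus near that of any gene, while most fold changes had one sign: 66 were higher and 17 lower, with a median log2 fold change of 0.12 against -0.01 over all genes. This median was 0.036 without 9527 mouse 11, 0.084 without saline mouse 2 and 0.19 without 9527 mouse 12, and with offsets for GC content and length it was 0.075, with 61 higher and 22 lower. Both subunits showed it, with medians of 0.12 and 0.12 and with 41 of 49 genes of the large and 25 of 34 of the small subunit higher.

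In the 9527 group Rplp0 of the stalk had the smallest p-value of the large subunit and Rps26 that of the small one. Rplp0 (chr5:115559467-115563727), the base of the stalk, which the study also used under another name as reference gene of its qPCR, was at 593, 691 and 543 CPM with 9527 and at 519, 447 and 418 CPM with saline. No 9527 mouse overlapped with saline. The log2 fold change was 0.40 with an SE of 0.11 and an adjusted p of 0.065 from edgeR, while DESeq2 and limma's voom gave adjusted p-values of 0.0088 and 0.040. Rplp2 (chr7:141447370-141451585), an acidic stalk protein, was at 140, 147 and 135 CPM with 9527 and at 124, 103 and 106 CPM with saline, again without overlap (log2 fold change 0.34, SE 0.11, edgeR adjusted p = 0.11, DESeq2 0.043).

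Rpl23 (chr11:97777527-97782437), with smaller p-values than Rplp2, was at 336, 356 and 342 CPM with 9527 and at 298, 234 and 276 CPM with saline (log2 fold change 0.36, SE 0.10, edgeR adjusted p = 0.073, DESeq2 0.013). In the small subunit Rps26 (chr10:128624534-128626747), which lies along the mRNA exit path, was at 195, 236 and 171 CPM against 156, 152 and 130 CPM (log2 fold change 0.46, SE 0.15, edgeR adjusted p = 0.12, DESeq2 0.045). Rpl36a, named after its values were seen, was at 65.9, 76.1 and 55.1 CPM against 49.4, 52.8 and 44.9 CPM (edgeR adjusted p = 0.099, DESeq2 0.040). In each of these genes 9527 mouse 11 was the highest of the 6, and the 9527 mice were above all saline mice. DESeq2 thus called 5 of the 83 genes, all higher, beside 5.1% of all genes, and voom called Rplp0 alone, beside 2.65%.

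Markers of other cells differed in the same comparison. The 4 macrophage markers in the table, of 5 listed, summed to 549 to 700 CPM in saline and 760 to 1531 CPM in 9527 mice, and Cd68, a lysosomal protein of macrophages, rose (log2 fold change 0.83, edgeR adjusted p = 0.044). The 4 endothelial markers summed to 3014 to 3723 and 2694 to 2707 CPM, and Cldn5 of endothelial tight junctions fell by 0.55 on the log2 scale (adjusted p = 0.022, edgeR). Red cell markers were at 7533 to 12533 and 2720 to 6785 CPM, and club and ciliated markers at 17033 to 22004 and 12981 to 15484 CPM. The alveolar, B cell, T cell, neutrophil and heart and muscle lists overlapped between the groups. The part of these cells in the ribosomal protein values was not tested.

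Rplp1 (chr9:61913284-61914542), the second acidic protein of the stalk, was higher than in all 3 saline mice in all 15 treated male mice, as 0.406% of all genes were. It was at 431, 454 and 398 CPM with saline, and at 627, 534 and 583 CPM with oil, 566, 469 and 548 CPM with 9500 and 475, 586 and 493 CPM with 9527. With 9500+oil it was at 542, 679 and 563 CPM and with 9527+oil at 532, 526 and 502 CPM. The lowest treated mouse, at 469 CPM, stood close to the highest saline mouse, at 454 CPM. All 5 comparisons use the same 3 saline mice, so their directions are not independent.

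The log2 fold change of Rplp1 was 0.44 (SE 0.11) with oil, 0.30 (SE 0.11) with 9500, 0.28 (SE 0.11) with 9527, 0.48 (SE 0.11) with 9500+oil and 0.28 (SE 0.11) with 9527+oil. The adjusted p-values of edgeR were 0.22, 0.93, 0.20, 0.63 and 0.85, so no comparison passed the threshold, and the test over the 6 groups gave 0.25. DESeq2 put oil (adjusted p = 0.019), 9500+oil (0.037) and the 6 groups together (0.019) past it, where it called 0.644%, 0.0515% and 3.94% of all genes. In female mice Rplp1 overlapped between saline (864, 500 and 25.6 CPM) and every treatment.

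**Figure D4:**
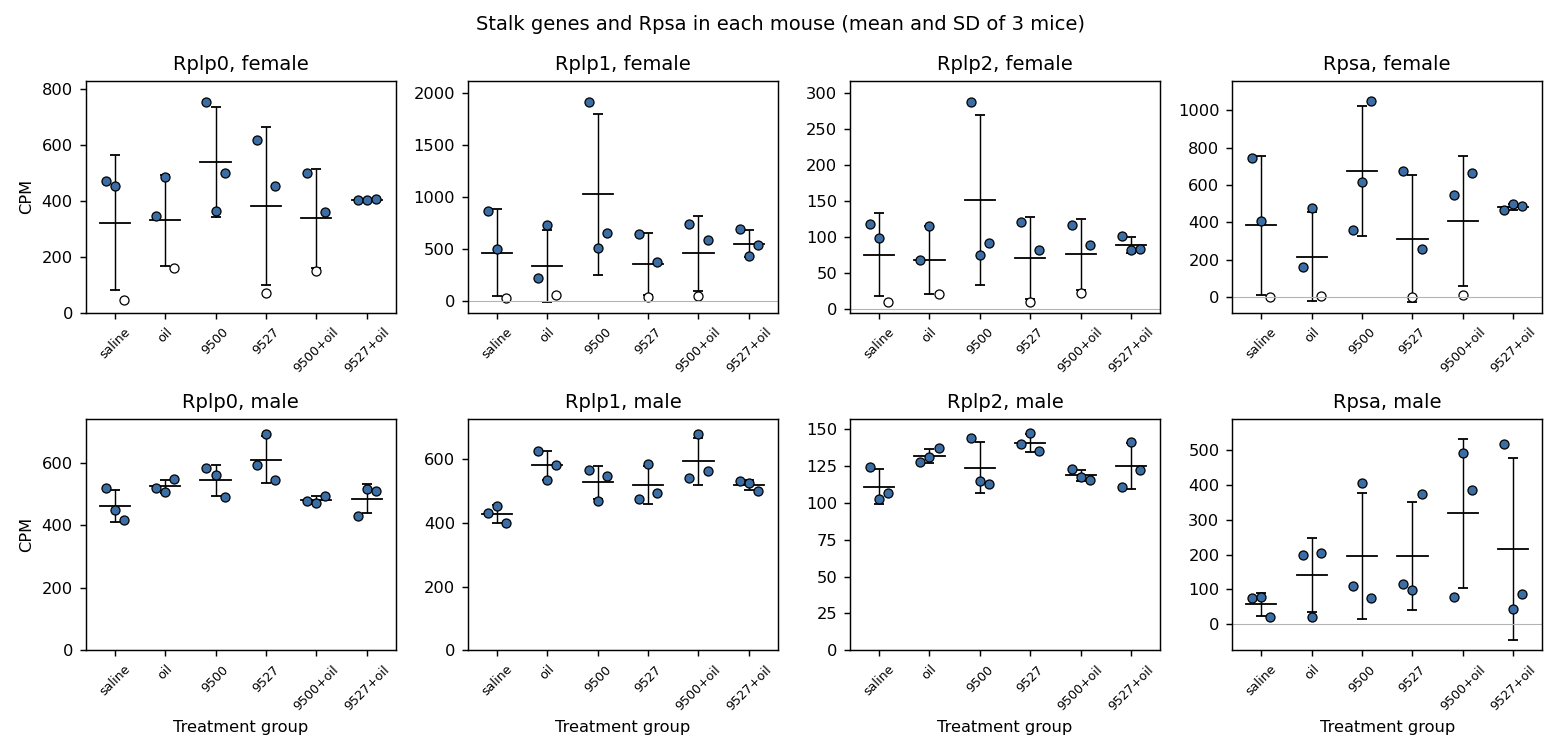
CPM (vertical axes) of Rplp0, Rplp1, Rplp2 and Rpsa in each female (top) and male mouse (bottom) by treatment group; lines and bars are the mean and SD of 3 mice, and open circles are the 4 libraries with over 20% of counts on mt- rows. All 15 treated male mice were above the 3 saline mice for Rplp1 (469 to 679 against 398 to 454 CPM), and Rpsa ran from 19.7 to 516 CPM in male mice.

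In the other male comparisons edgeR called 0 of the 83 genes and 0 (0%) of all 15519, and voom also called 0 of the 83, while DESeq2 called Rplp1 with oil and with 9500+oil and 0 of the 83 with 9500 and 9527+oil. With oil, 6 were at an unadjusted p under 0.05, all higher, beside 8.27% of all genes, and 7 were higher in all 3 mice, beside 7.38%. Among the 6 was Rps29, the one of the small subunit, at 254, 163 and 249 CPM against 177, 165 and 141 CPM in saline, with one oil mouse inside the range of saline (log2 fold change 0.47, SE 0.18, edgeR adjusted p = 0.45). The macrophage markers summed to 835 to 932 CPM with oil and 549 to 700 CPM with saline, the neutrophil markers to 280 to 855 and 213 to 245 CPM, and the heart and muscle markers to 294 to 320 and 352 to 534 CPM, without overlap, while the other 7 lists overlapped; their part was not tested. With 9500, 3 genes were at that level (Rplp1, Rpl23 and Rplp0, all higher), beside 4.9% of all genes, and 3 were higher in all 3 mice (Rplp1, Rps29 and Rpl36a), beside 6.39%. The medians were 0.03 with oil and 0.04 with 9500, with 53 and 45 of 83 genes higher, and neither direction was stable. Leaving out 1 mouse moved them from -0.02, without saline mouse 2, to 0.11, without saline mouse 1, for oil and from -0.04, without 9500 mouse 7, to 0.11, without saline mouse 1, for 9500. With copies added to their genes 9500 had -0.02, with 33 higher and 49 lower.

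With 9500+oil, 14 of the 83 genes (16.9%) were at an unadjusted p under 0.05, 13 higher and 1, Rpl10, lower, beside 7.6% of all genes, while 4 were higher in all 3 mice, beside 7.75% of all genes, and 2 lower, beside 7.52%. The 4 were Rpl31, Rplp1, Rps25 and Rpsa. The median of the 83 was -0.01, with 41 higher and 42 lower. With near-identical copies added to their genes it was -0.05, with 31 higher and 51 lower, and 7 of 82 were at that level, all higher, beside 7.58% of all genes. Rpl10, which joins the large subunit late in its assembly, was at 67.4, 55.2 and 73.9 CPM against 113, 93.9 and 85.4 CPM in saline (log2 fold change -0.57, SE 0.20, edgeR adjusted p = 0.63), and 77.3% of its family's counts lay on copies.

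Several of these genes followed 1 or 2 mice. Rps23, a protein of the decoding site, was at 103, 157 and 132 CPM with 9500+oil and at 105, 78.7 and 80.1 CPM with saline, so that mouse 13 lay within saline and mouse 14 well above it (log2 fold change 0.57, SE 0.17, edgeR adjusted p = 0.63). Rps25, a protein of the small subunit that some viruses need to start translation, was at 10.4, 21.7 and 11.9 CPM with 9500+oil, at 22.9, 13.2 and 12.2 CPM with 9527+oil and at 9.55, 8.08 and 8.94 CPM with saline, without overlap (edgeR adjusted p = 0.63 and 0.85).

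With 9527+oil, 4 of the 83 genes were at an unadjusted p under 0.05 (Rps25, Rps29, Rplp1 and Rpl23, all higher), beside 5.45% of all genes, and 5 were higher in all 3 mice (those 4 and Rpl36a), beside 5.86%, and 2 were lower, beside 5.88%. The median was -0.03, with 37 higher and 46 lower, and with copies added to their genes -0.09, with 27 higher and 55 lower. The subunits had medians of 0.03 for the large and -0.10 for the small one. In the test over all 6 male groups edgeR called 21 genes (0.135%) and no ribosomal protein gene, DESeq2 called Rplp1 and Rplp0, and voom called 0 of the 83. By edgeR 5 of the 83 were at an unadjusted p under 0.05 (Rplp1, Rplp0, Rps23, Rpl23 and Rpl13), beside 10.4% of all genes.

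Rpsa (chr9:120127689-120132369) had the widest range of any coding member in male mice, an SD of 1.45 on the log2 scale. Rpsa was at 74.3, 77.7 and 19.7 CPM with saline, 199, 19.7 and 205 CPM with oil and 109, 404 and 74.6 CPM with 9500. It was at 116, 99.4 and 374 CPM with 9527, 78.2, 491 and 386 CPM with 9500+oil and 516, 43.7 and 87.3 CPM with 9527+oil. The mice of a group differed by more than 2-fold in every group, and 9527 and 9500+oil were the groups without overlap with saline. The highest levels were those of 9527+oil mouse 16 and 9500+oil mouse 14, and the lowest those of saline mouse 3 and oil mouse 5.

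Rps12l1 went the other way, at 54.9 and 80.9 CPM in saline mouse 3 and oil mouse 5 and at 0 CPM in 9500+oil mouse 14 and 9527+oil mouse 16. In the same pair Rpl5, which carries the 5S RNA into the large subunit, was at 63.4 and 69.8 CPM against 28.7 to 45.1 CPM in the other 16 male mice, while the identical row Gm15500 was at 318 and 270 CPM. The counts on all near-identical copies were 0.190% and 0.159% of the counts outside mt- rows in these mice and 0.327% and 0.376% in saline mouse 3 and oil mouse 5. The most counted copy of Rpsa, Rpsa-ps9, did not pass 2.83 CPM in any male mouse.

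In female mice edgeR called 0 of the 82 genes in each of the 5 comparisons, and 0 (0%) of all 15526 genes. At an unadjusted p under 0.05 were 0 with oil (all genes 1.11%), 1 with 9500 (2.97%), 0 with 9527 (1.73%), 0 with 9500+oil (0.734%) and 0 with 9527+oil (2.66%). The 1 gene was Rpl27, with its 338, 30.3 and 54.5 CPM against 51.4, 15.4 and 3.52 CPM in saline, whose division between identical rows is described above (log2 fold change 2.58, SE 0.92, edgeR adjusted p = 0.95). Over the 6 groups 2 of all genes were called (0.0129%) and no member, with 1 of 82 members, again Rpl27, at an unadjusted p under 0.05, beside 1.35%. DESeq2 called 1 of the 82 genes over all female comparisons, Rps12l1 with 9527+oil, where it called 0.122% of all genes. This row was at 0 CPM in 2 of the 3 saline mice, at 9.96 CPM in saline mouse 3 and at 0 CPM in all 9527+oil mice, so the call rests on 1 library rich in mt- counts. Voom called 0 of the 82 in the 5 comparisons and 3 over the 6 groups (Rpl5, Rpl7 and Rpl29), beside 7.23% of all genes. Typical SEs in this table were 0.69 on the log2 scale, against 0.13 for the large and 0.17 for the small subunit in male mice.

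The directions in female mice turned on which libraries were kept. With all 18 mice the median log2 fold changes were 0.004 with oil, 0.52 with 9500, -0.06 with 9527, 0.002 with 9500+oil and 0.01 with 9527+oil, and 72 of 82 genes were higher with 9500, beside medians of 0.03 to 0.09 over all genes. Without the 4 libraries rich in mt- counts they were -0.13, 0.14, -0.12, -0.16 and -0.35, on 81 genes tested. With 9527+oil 77 genes were then lower and 3 higher, and with 9500+oil 74 lower and 6 higher. The large and the small subunit had medians of -0.35 and -0.38 with 9527+oil, so the shift was shared by both. EdgeR again called 0 genes. At an unadjusted p under 0.05 were 0 of the 81 with oil (all genes 0.506%), 2 with 9500 (4.05%), 0 with 9527 (3.7%), 0 with 9500+oil (0.474%) and 0 with 9527+oil (1.47%), with 2 saline mice left, and over the 6 groups 3 of 81 (4.23%). In these 14 mice the macrophage markers summed to 607 and 619 CPM in saline mice 1 and 2, 463 and 577 CPM with 9500+oil and 381 to 444 CPM with 9527+oil, and with all 18 mice these groups did not overlap with saline either. The same markers were at 516 and 574 CPM with oil, 643 to 1211 CPM with 9500 and 1108 and 2040 CPM with 9527. With 9527+oil the alveolar type 1, alveolar type 2, club and ciliated and T cell lists were also below both saline mice, the first at 2172 to 2427 against 2602 and 2640 CPM, and with 9500+oil the neutrophil list was, at 94.4 and 110 against 117 and 118 CPM. With 9527 the alveolar type 1, club and ciliated, endothelial, heart and muscle and neutrophil lists were below both saline mice, the first at 2229 and 1974 CPM. With 9500 both alveolar lists were below them. With oil the neutrophil list was below and the club and ciliated list above both saline mice. Their part in the ribosomal protein values was not tested. Voom on all 18 mice, which gives each library a weight, had medians of -0.42 with oil, -0.33 with 9500, -0.30 with 9527, -0.22 with 9500+oil and -0.33 with 9527+oil.

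Leaving out 9500 mouse 7 as well turned the 9500 comparison over, to a median of -0.42 with 75 of 80 genes lower and 5 higher. This mouse stood apart by its high level of these very genes, so that direction is partly fixed by leaving it out, and no count of small p-values is given for this set of mice. In the comparisons without that group, the median was -0.13 with oil, -0.15 with 9527, -0.16 with 9500+oil and -0.36 with 9527+oil. EdgeR called 0 of the 80 genes in each of the 5 comparisons. In these 13 mice the saline group was saline mice 1 and 2, whose shares of 2.16% and 1.90% were among the highest of the remaining female mice, and oil mouse 5, 9527 mouse 10 and 9500+oil mouse 13 lay at 2.17%, 2.22% and 2.16%, at or above them.

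**Figure D5:**
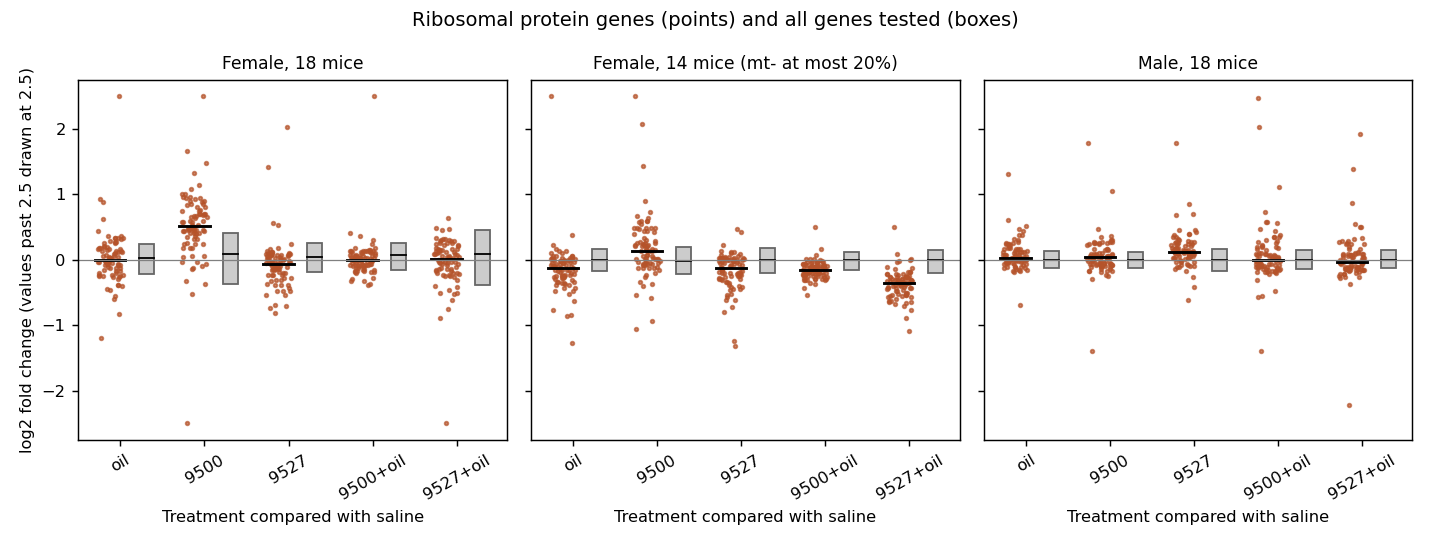
Log2 fold change of each ribosomal protein gene against saline (vertical axis; points, drawn at 2.5 where past it, with a bar at their median) in female mice, in the 14 female mice with at most 20% of counts on mt- rows, and in male mice; the box beside each gives the 25th to 75th percentile and the median of all genes tested. With 9500 the median is 0.52 over all female mice and 0.14 without the 4 libraries, and in male mice 9527 has the highest median, 0.12.

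Among the genes with the smallest p in a subunit in female mice, Rpl5 was at 35.8, 61.2 and 83.9 CPM with oil and 59.4, 163 and 34.9 CPM with 9527, against 200, 35.5 and 176 CPM with saline. Rps27l was at 20.3, 19.5 and 29.3 CPM with oil and at 12.6, 18.0 and 6.56 CPM with saline, without overlap (edgeR adjusted p = 1.00). With oil 2 of the 82 genes were higher in all 3 mice, beside 2.98% of all genes. Rps28 with 9500 was at 342, 70.7 and 92.1 CPM against 114, 87.7 and 62.5 CPM, which rests on mouse 7. Rpl23a with 9527+oil was at 302, 210 and 252 CPM against 425, 315 and 430 CPM, lower in all 3 mice (log2 fold change -0.62, SE 0.36, edgeR adjusted p = 0.91). With 9527+oil 8 of the 82 genes were lower in all 3 mice, beside 6.97% of all genes.

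Whether a treatment acted differently in the sexes was tested in one fit of all 36 mice, as the male minus the female effect. EdgeR called 0 of the 83 genes and 0 (0%) of 15913 genes for each treatment. At an unadjusted p under 0.05 were 0 of the 83 for oil (all genes 3.32%), 2 for 9500 (2.85%), 0 for 9527 (1.69%), 0 for 9500+oil (1.68%) and 0 for 9527+oil (3.77%). The 2 were Rpl27 and Rpl3l, both lower in the male effect. DESeq2 called none of the 83, and voom with sample weights called 19 for oil, all higher in the male effect, beside 15.6% of all genes. The median difference was 0.04 for oil, -0.51 for 9500, 0.18 for 9527, -0.01 for 9500+oil and 0.01 for 9527+oil, and without the 4 libraries rich in mt- counts 0.18, -0.08, 0.27, 0.16 and 0.36. EdgeR then called 0 of the 83 as well, and at an unadjusted p under 0.05 were 1 for oil (all genes 5.23%), 2 for 9500 (3.12%), 1 for 9527 (2.2%), 0 for 9500+oil (1.4%) and 3 for 9527+oil (2.62%), all higher in the male effect.

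Related gene lists gave no call either, among them the proteins of the separate ribosome of mitochondria: edgeR called 0 of 34 translation factors, 0 of 39 ribosome biogenesis factors, 0 of 14 other genes of the ribosome or with a pyrimidine start, 0 of 18 genes that control this programme and 0 of 77 mitochondrial ribosomal proteins in each of the 5 male comparisons. In 4 of these comparisons edgeR called 0 (0%) of all 15519 genes, and with 9527 it called 1.83%. DESeq2 and voom were not summarised for these lists. In 9527 male mice the mitochondrial ribosomal proteins had a median log2 fold change of 0.12, with 68 of 77 higher and 18 at an unadjusted p under 0.05, beside the 16.2% of all genes given above. In the other 4 comparisons 0 to 5 genes of a list of 14 to 77 were at that level, beside 4.9% to 8.27% of all genes. These counts are not given list by list, so they cannot be set against those shares. With 9527 the other lists were as follows. The pyrimidine-start genes had a median of 0.19 (12 of 14 higher, 3 at that level), the biogenesis factors 0.10 (28 of 39, 8), the translation factors 0.09 (26 of 34, 5) and the control genes -0.01 (8 of 18, 2). The smallest adjusted p was 0.055 for Ncl, nucleolin, and 0.060 for Hnrnpa1, an RNA-binding protein. With 9500+oil and 9527+oil the biogenesis factors had medians of -0.09 and -0.12, with 11 and 9 of 39 higher.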

How the data were processed

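Left lung RNA of 36 mice was sequenced as stranded mRNA libraries with paired reads of 150 bases, from RNA with an integrity number of at least 8. The authors estimated reads per transcript with Salmon on Ensembl GRCm38 and summed them with tximport, and the deposited values are expected counts, 1 table a sex, of 18120 rows (female) and 18295 (male). Versions are not given in the sources used here. All values were whole, and every row summed to at least 10. Rows that share a name, 4 a sex with 0.0103% and 0.0128% of counts, were left out, and 24 carry a date for a symbol. Gene identity and positions came from GENCODE M21 (GRCm38), sequences of promoters from RefSeq.

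Groups came from the sample labels. TMM scaling, filterByExpr and edgeR 4.0.16 quasi-likelihood tests (R 4.3.3) were fitted per table over 18 mice and over 36 for the sexes, with Benjamini-Hochberg adjustment over all genes and a threshold of 0.05, 2-sided. DESeq2 1.42.0 and limma 3.58.1 (voom with sample weights) were alternatives. CPM are TMM-scaled. Log2 CPM used a prior count of 2. Other normalizations, filters, GC offsets and leaving out each mouse were tried too. The fits were tested on simulated data. Named genes were the stalk and Rpsa, paralogs with namesakes, the smallest p of each subunit per comparison, the extremes of level per kb and the largest male SD, and others were named after their values were seen. The genes and lists were chosen with earlier results of these data known. Values of 1 member are not reported here by name, though it is in the counts and medians.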

Additional observations from a re-analysis of the deposited data

Results flagged for a closer look

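Rpl23 stood on opposite sides of saline in the sexes with 9527+oil. It was at 276, 270 and 252 CPM in treated and 360, 299 and 819 CPM in saline female mice, and at 302, 331 and 324 CPM in treated and 298, 234 and 276 CPM in saline male mice, so that every treated mouse was below saline in the one sex and above it in the other. In female mice 8 of the 82 genes were lower in all 3 treated mice, beside 6.97% of all genes. In male mice 5 of the 83 were higher in all 3, beside 5.86%. The male effect minus the female effect was 1.14 on the log2 scale (SE 0.57, edgeR adjusted p = 0.93), and without the 4 libraries rich in mt- counts, one of which is the saline mouse at 819 CPM, it was 0.55 (edgeR adjusted p = 1.00). The difference did not pass the threshold in either fit.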

How the results depend on the processing

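Over the choices of test, scaling, filter, mice and rows, 821 planned results and 43 chosen after seeing the data stayed close to the reported value, as did 2 shares, and 12 planned results did not, all given here. Close means within 1.5 times for a count of calls and within 1 SD between replicates for a median, which on the log2 scale was 1.01 in female and 0.0943 in male mice, so that female medians that crossed 0 count as close. Where edgeR called 0 of the ribosomal protein genes, DESeq2 called 5 with 9527 in male mice, 2 over the 6 male groups, 1 with oil and 1 with 9500+oil in male mice, and 1 with 9527+oil in female mice. Voom with sample weights called 1 with 9527 in male mice, 3 over the 6 female groups and 19 for the oil difference between the sexes, and offsets for GC content and length called 1 with 9527 in male mice. The causes were not tested. The share of all genes called is given above where DESeq2 or voom called a ribosomal protein gene. It is not given where they called 0, for the offsets or for leaving out 1 mouse, so those counts cannot be set beside it. Leaving out 1 mouse at a time gave 0 to 2 genes with 9527 in male mice: Rplp0 (edgeR adjusted p = 0.030) and Rpl36a (0.033) without 9527 mouse 12, and Rplp0 (0.047) without 9527+oil mouse 16, against 0.065 and 0.099 with all mice. The median with 9527 in male mice ran from 0.036, without 9527 mouse 11, to 0.19, without 9527 mouse 12. The median with 9527+oil in male mice ran from -0.12 to 0.068, the latter without saline mouse 1. The female median with 9500 ran from -0.04, without 9500 mouse 7, to 0.90, without saline mouse 1, and was 0.14 without saline mouse 3. The other female medians also crossed 0 when 1 mouse was left out, from -0.38 to 0.37 with oil, -0.50 to 0.25 with 9527, -0.42 to 0.37 with 9500+oil and -0.34 to 0.39 with 9527+oil. Female and male mice carry the same 18 numbers, but deviations from the group means correlated by -0.364 to 0.221 over these pairs and only 6 passed 0.1, so the numbers were not taken as pairs. With the mouse number as a replicate block the differences between the sexes still gave 0 calls, with medians of -0.17, -0.75, 0.15, -0.13 and -0.42 in the order of treatments used above. At these depths a row at 0 cannot be told from one at up to 3 counts.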
